A study of Mus musculus with 14 samples.

Results

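The 9 genes described here encode the machinery with which a cell shows peptides to CD4+ T cells on MHC class II, and they were followed in dorsal horn (DH) microglia from arthritic and non-arthritic mice. They were chosen by symbol, as H2-Aa, H2-Ab1, H2-Eb1, Cd74, Ciita, H2-DMa, H2-DMb1, H2-DMb2 and Cd86, and all 9 were found once among the 14329 genes measured. The lumbar dorsal cord of male and female mice aged 6 months was dissociated at day 5 of serum transfer, and 2000 cells per sample were sorted on a CD45low, CD11b+ and CX3CR1+ gate. WT mice were C57BL/6J. TASTPM mice were heterozygous, on a C57BL/6 background, for transgenes that include human APP with the Swedish mutation, under control of the murine Thy-1 promoter, which is used for expression in neurons. Mice were given K/BxN serum, which carries autoantibodies that inflame the joints (K/BxN ST, 4 libraries of WT and 4 of TASTPM), or serum of non-arthritic KRN/C57 mice (Control ST, 3 libraries of each genotype). In TASTPM K/BxN ST the library numbers are those of the sample labels, and in the other 3 groups they follow the order of the deposited values, because the columns could be joined to the group alone.

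The class II molecule at the cell surface is a pair of an alpha and a beta chain. H2-Aa and H2-Ab1 encode the chains of I-A, and H2-Eb1 encodes the beta chain of I-E, whose alpha chain is not made by C57BL/6 mice. Cd74 encodes the invariant chain, which fills the groove of new class II molecules and guides them to endosomes. There H2-DM, built from the products of H2-DMa and either H2-DMb1 or H2-DMb2, exchanges the remnant of the invariant chain for peptide. Ciita encodes the coactivator that switches these genes on together from a shared promoter architecture, and Cd86 encodes a co-stimulatory ligand that T cells read beside the class II signal. In the healthy central nervous system, class II is sparse on microglia and is carried by border-associated macrophages, by dendritic cells and by monocyte-derived cells.

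Each library held 14223015 to 20239175 reads on genes. Values are normalised counts, which are reads divided by the size factor of their library, and 1 read was worth between 0.838 and 1.19 normalised counts. P2ry12, a purinergic receptor that marks microglia, had 34656 to 166138 normalised counts, so a defining microglial transcript was abundant in every library. Libraries 1 and 2 of WT K/BxN ST and libraries 1 and 2 of TASTPM K/BxN ST stood apart from the other 10. In these 4, the 7 monocyte markers summed to between 86171 and 162854 normalised counts, against 21.0 to 1035 in the 10 others, although the sort selected CD45low cells and the gating of the study also left out cells positive for Ly6C or CCR2. P2ry12 was 34656 to 94752 in the 4 and 106484 to 166138 in the 10. The sum of the 7 neutrophil markers was 3525 to 187522 in the 4 against 6.71 to 2751 in the others, that of 6 measured dendritic cell markers was 1275 to 9379 against 92.2 to 592, and that of 7 border-associated macrophage markers was 1295 to 3430 against 0 to 947. The sum of 6 markers of amyloid-responsive microglia, of which Itgax is also on the dendritic cell list, was 14139 to 14988 against 3335 to 9044. Of these 6, Clec7a (5656 to 6512 against 977 to 3741) and Spp1 (1126 to 3499 against 3.33 to 837) were higher in each of the 4, and Cst7, Lpl, Axl and Itgax overlapped. The 3 measured B cell markers of 6 overlapped, at 6733 to 9274 against 5442 to 9745, and none of the 4 T cell markers was among the genes measured. Y-linked transcripts dominated over Xist in all 4 (Xist 0 to 12.5), as they also did in TASTPM K/BxN ST library 3, TASTPM Control ST library 3 and WT Control ST libraries 1 and 2. Both kinds were present in WT Control ST library 3 (Xist 1706, Y-linked transcripts 852 in sum) and in TASTPM Control ST library 3 (202 and 2577). The study describes its samples as individual mice, and the source of the mixed signal was not tested. In these bulk samples, fewer cells of a type and less RNA per cell cannot be told apart.

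The I-A, I-E and invariant chain genes were high in the same 4 libraries and low in the other 10, in both genotypes, and K/BxN ST and Control ST overlapped for each of them in WT. For H2-Aa, the I-A alpha chain, libraries 1 to 4 of WT K/BxN ST held 30560, 19271, 32.3 and 10.9 normalised counts, and the WT controls held 11.2, 407 and 97.4. Libraries 1 to 4 of TASTPM K/BxN ST held 28159, 6568, 612 and 1143, and the TASTPM controls held 529, 53.3 and 17.3. Library 3 of WT K/BxN ST thus lay below 2 of the 3 WT Control ST libraries and library 4 below all of them, whereas each of the 4 TASTPM K/BxN ST libraries lay above all 3 of TASTPM Control ST. Such a complete separation upwards was found for 2.67% of the 12645 genes tested in that comparison, and the gap between the nearest libraries was 612 against 529.

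H2-Ab1, the I-A beta chain, was measured in WT at 42072, 27999, 538 and 653 normalised counts after K/BxN serum and at 407, 1068 and 668 after control serum. The TASTPM values were 41826, 9696, 954 and 1453 after K/BxN serum and 1673, 838 and 244 after control serum. Libraries 1 and 2 of each K/BxN ST group were above every control, and libraries 3 and 4 fell within the range of the controls. H2-Eb1, the I-E beta chain, had 16949, 10649, 2.39 and 13.1 normalised counts in the arthritic WT mice and 3.75, 172 and 46.8 in their controls. The arthritic TASTPM mice had 14995, 3856, 102 and 366, and their controls had 401, 83.3 and 5.45. On the log2 scale the spread of this gene among controls of 1 genotype was wider than that of H2-Ab1 (SD 2.63 against 0.70 in WT and 3.01 against 1.41 in TASTPM), and again it was libraries 1 and 2 alone that exceeded all controls.

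Cd74, the invariant chain, whose gene is on chromosome 18, was the most abundant of the 4. It reached 105860 and 76375 normalised counts in WT K/BxN ST libraries 1 and 2 but 1873 and 1407 in libraries 3 and 4, beside 984, 2174 and 971 in the WT controls. The TASTPM libraries had 99617, 26822, 3077 and 4515 after K/BxN serum, beside 3213, 1569 and 1109 in the controls. Library 4 of TASTPM K/BxN ST, which had 146 normalised counts of monocyte markers in sum, was therefore also above all 3 of its controls, and library 3 was just below the highest of them.

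**Figure D1:**
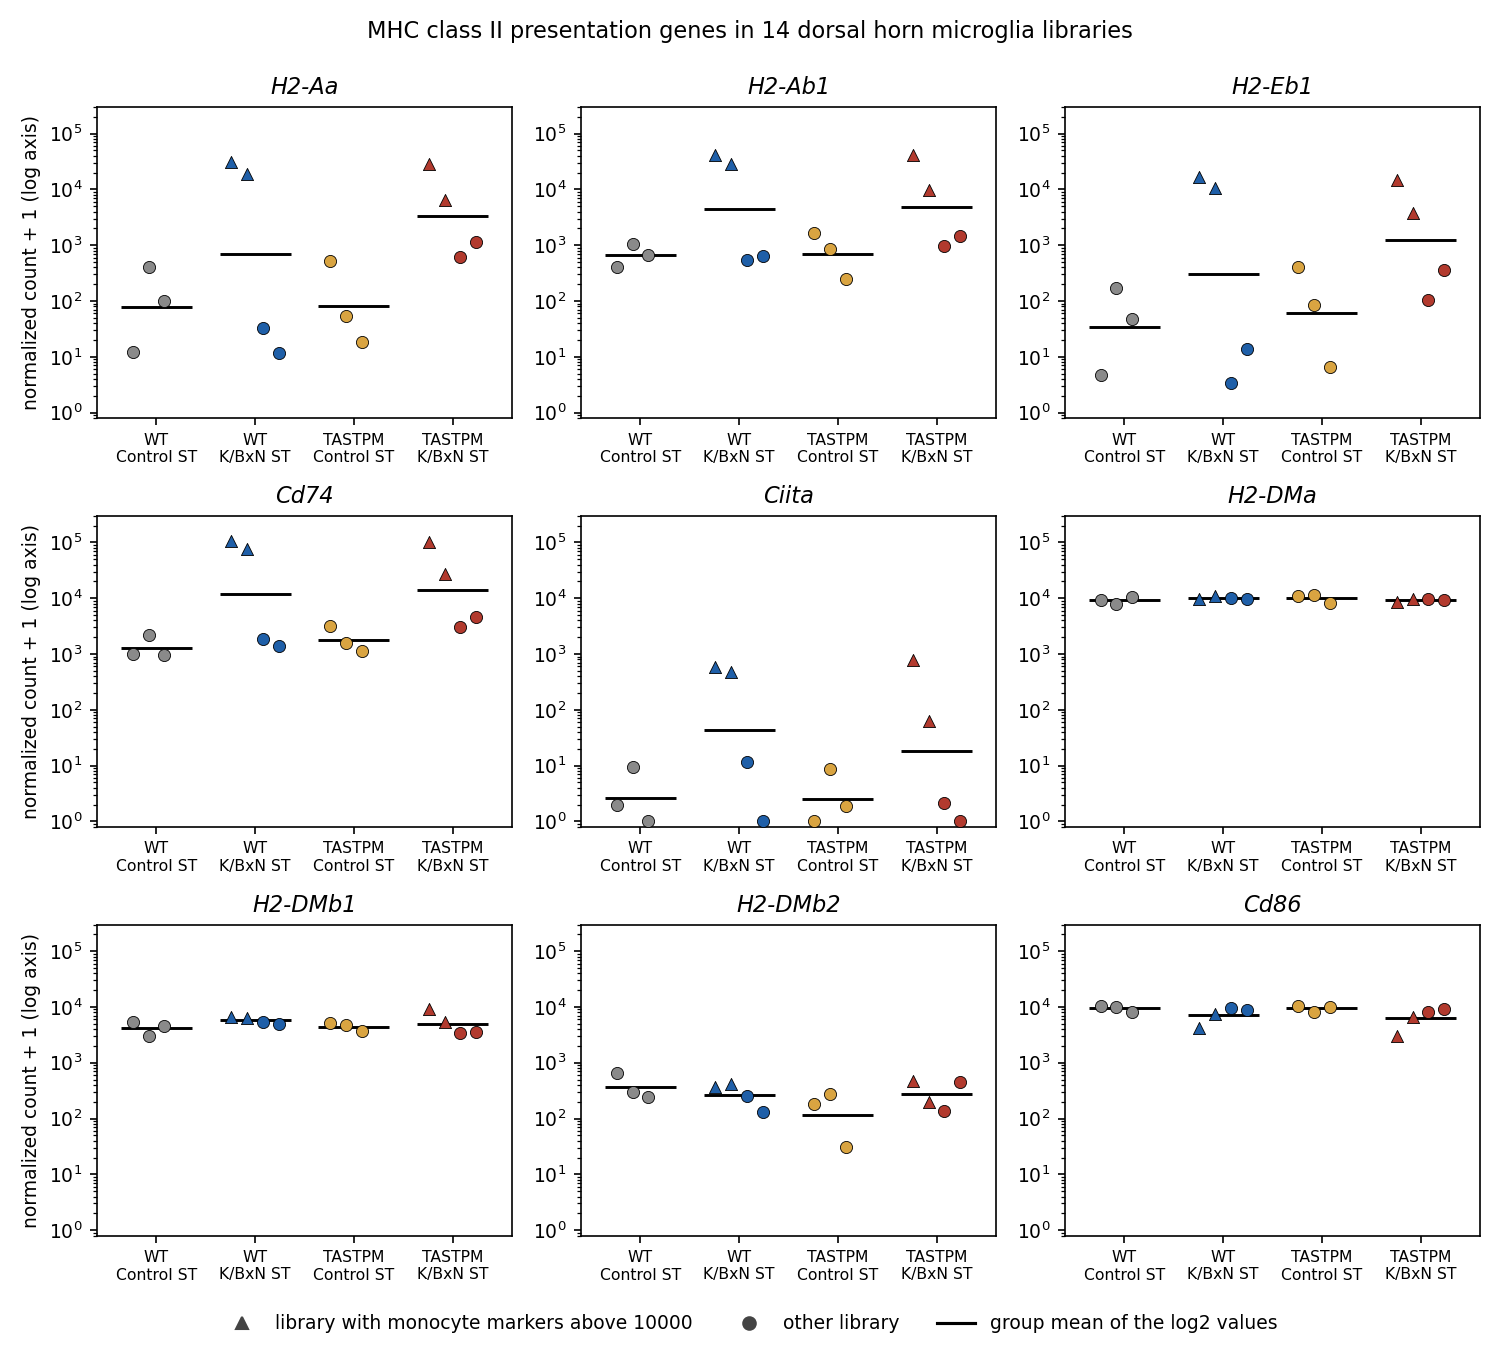
Normalised count plus 1 (log axis) of each of the 9 genes in the 14 libraries, by group; triangles are the 4 libraries with more than 10000 normalised counts of monocyte markers, circles the 10 others, and bars the group means of the log2 values. H2-Aa, H2-Ab1, H2-Eb1, Cd74 and Ciita are high only where the symbol is a triangle, Cd86 is lowest there, and H2-DMa is level throughout, between 7995 and 11323.

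Ciita, the coactivator, was close to undetected outside those 4 libraries. The WT mice had 588, 476, 10.8 and 0 normalised counts of it after K/BxN serum and 0.937, 8.38 and 0 after control serum. The TASTPM mice had 772, 61.8, 1.17 and 0 after K/BxN serum and 0, 7.77 and 0.909 after control serum. With 3 reads taken as the smallest detectable number, 7 of the 10 other libraries were at or under that floor. Library 4 of TASTPM K/BxN ST held 1143 normalised counts of H2-Aa with no read of Ciita, and library 3 of WT K/BxN ST, with the highest Ciita value outside the 4, held 32.3 of H2-Aa. Ciita did not reach 10 reads in 7 libraries and was not in the fit across genes. The difference in its mean log2 value between K/BxN ST and Control ST came to 4.02 for WT (p = 0.286, n = 4 and 3, exact permutation, two-sided) and 2.82 for TASTPM (p = 0.400, n = 4 and 3, exact permutation, two-sided). The smallest p that these group sizes allow is 0.0571, so neither could pass 0.05. Without libraries 1 and 2 of each K/BxN ST group the difference was 0.38 in WT and −0.79 in TASTPM.

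The ranges of the H2-DM genes in the 4 libraries overlapped those in the 10 others. H2-DMa, the DM alpha chain, lay between 7995 and 11323 normalised counts in all 14 libraries. Its values in WT were 9725, 11020, 9958 and 9721 after K/BxN serum against 9300, 7995 and 10453 after control serum. Those in TASTPM were 8695, 9728, 9684 and 9120 against 11145, 11323 and 8116. In neither genotype did the groups separate, and the 4 libraries rich in monocyte markers (8695 to 11020) spanned the middle of the range of the others (7995 to 11323). H2-DMb1, a DM beta chain, had 6545, 6370, 5398 and 5033 against 5370, 3028 and 4517 in WT, and 9244, 5319, 3452 and 3582 against 5071, 4736 and 3650 in TASTPM. In WT 3 of the 4 K/BxN ST libraries exceeded all controls. Library 1 of TASTPM K/BxN ST was the highest of the 14, and libraries 3 and 4 of that group lay below all 3 of its controls. The 4 libraries rich in monocyte markers held the 3 highest values of H2-DMb1, at 5319 to 9244 against 3028 to 5398 in the 10 others, with a ratio of means of 1.57. H2-DMb2, the other DM beta chain, was scarce, with 360, 407, 251 and 131 against 658, 300 and 245 in WT, and 468, 194, 133 and 452 against 180, 271 and 30.0 in TASTPM, and its groups overlapped in both genotypes. The transcripts of H2-DMb1 (1404 bases) and H2-DMb2 (1462 bases) share a stretch of 221 identical bases, and 19.1% of the 75-base windows of the first occur in the second, so that the split of reads between them is uncertain.

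Cd86, the co-stimulatory ligand, had the opposite pattern to the class II chains. The WT mice had 4184, 7386, 9454 and 8672 normalised counts after K/BxN serum and 10224, 10062 and 8156 after control serum. The TASTPM mice had 2980, 6663, 8020 and 9310 after K/BxN serum and 10352, 8143 and 9996 after control serum. The 4 libraries rich in monocyte markers held the 4 lowest values, 2980 to 7386, and the 10 others held 8020 to 10352. Among all genes tested, 2.51% were lower in each of these 4 libraries than in each of the 10 others, and 7.63% were higher in each, as were H2-Aa, H2-Ab1, H2-Eb1 and Cd74 and, outside the genes tested, Ciita.

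Levels were compared between genes after division by the length of the representative transcript of each. In the 10 libraries with few monocyte markers, the median level per kb was 8429 normalised counts for H2-DMa, 3442 for Cd86, 3295 for H2-DMb1, 1203 for Cd74 and 621 for H2-Ab1. It was 169 per kb for H2-DMb2, 66.8 for H2-Aa, 38.3 for H2-Eb1 and 0.123 for Ciita. The ranges of H2-DMa (6946 to 9838) and Cd86 (2942 to 3797) did not meet, whereas those of Cd86 and H2-DMb1 (2157 to 3845) did, and so did those of H2-Aa and H2-Eb1. The class II chain genes thus stood below the H2-DM alpha chain in each of these libraries, and the ranges of H2-Aa (9.67 to 1013) and H2-Ab1 (201 to 1381) met. In the 4 libraries rich in monocyte markers, the levels per kb were 18743 to 73976 for Cd74, 8000 to 34712 for H2-Ab1, 5823 to 27092 for H2-Aa and 2272 to 9988 for H2-Eb1, while H2-DMa stayed at 7555 to 9575.

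The 3 chain genes and the H2-DM genes lie close together on chromosome 17 of the mouse genome (GRCm39): H2-DMa at 34338515 to 34358958, H2-DMb2 at 34362197 to 34370529, H2-DMb1 at 34372046 to 34379204, H2-Ab1 at 34476663 to 34488393, H2-Aa at 34493404 to 34506798 and H2-Eb1 at 34504236 to 34535648, with H2-Aa alone on the minus strand. Ciita (10297923 to 10347694) and Cd86 (36424044 to 36486443, minus strand) lie on chromosome 16. The kit did not keep strand, and exons of H2-Aa and H2-Eb1 overlap by 118 bases on opposite strands, those of H2-DMa and Brd2 by 510 and those of Ciita and Dexi by 633. Exons of H2-DMb1 overlap those of the long noncoding RNA Gm64535 by 285 bases, which is 17% of its exonic bases and the largest such share, and H2-Eb1 overlaps Gm20513 by 130, so reads there cannot be assigned by strand. The promoters of class II and H2-DM genes are known for an X box, read by the RFX complex, followed by a Y box, read by NF-Y, on which CIITA assembles. The 100 bases before the start of the representative transcript are shown for 5 genes in which the Y box letters ATTGG were found there, because 3 of these genes were high in the 4 libraries while H2-DMa and H2-DMb2 were not. Capitals mark ATTGG or its reverse complement CCAAT, the X box core ACAGATG, and GATGATG, a string that was picked out after the sequences had been read.
H2-Ab1, chr17:34482083-34482182, plus strand: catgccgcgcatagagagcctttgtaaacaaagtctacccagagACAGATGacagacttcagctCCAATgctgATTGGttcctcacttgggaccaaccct
H2-Aa, chr17:34506798-34506897, minus strand: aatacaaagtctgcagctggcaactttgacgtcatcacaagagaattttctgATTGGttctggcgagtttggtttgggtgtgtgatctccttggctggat
H2-Eb1, chr17:34524713-34524812, plus strand: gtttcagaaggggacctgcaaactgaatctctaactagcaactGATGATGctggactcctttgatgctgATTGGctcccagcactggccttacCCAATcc
H2-DMa, chr17:34354460-34354559, plus strand: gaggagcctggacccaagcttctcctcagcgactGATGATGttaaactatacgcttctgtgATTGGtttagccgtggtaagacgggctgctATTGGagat
H2-DMb2, chr17:34364074-34364173, plus strand: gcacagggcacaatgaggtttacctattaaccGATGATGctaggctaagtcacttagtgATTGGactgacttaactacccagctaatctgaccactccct
ATTGG lay within the 50 bases before the start in H2-Ab1 (bases 27 to 23 before it), H2-Aa (48 to 44), H2-Eb1 (31 to 27), H2-DMa (39 to 35, and again at 9 to 5) and H2-DMb2 (41 to 37), and in 6.16% of 21770 protein-coding genes. ACAGATG stood upstream of it in H2-Ab1 alone (56 to 50), and GATGATG stood upstream of it in H2-Eb1 (57 to 51), H2-DMa (66 to 60) and H2-DMb2 (68 to 62). Only exact matches were searched for, so the absence of ACAGATG does not show that a promoter lacks an X box. Over the 250 bases before the start and on both strands, ACAGATG occurred in 3.2% of the genes, ATTGG in 36.5%, both in 1.06% and GATGATG in 2.8%. ACAGATG was also present, as CATCTGT, in H2-Aa (232 to 226 bases before the start), and CCAAT in Cd74 (183 to 179). H2-DMb1, Ciita and Cd86 had none of these strings in their 250 bases. The Y box letters were therefore common to genes that were higher in the 4 libraries and to genes whose ranges overlapped.

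The first question of the design was whether K/BxN serum changed these genes in WT microglia. With limma on log2 values, H2-Aa, H2-Ab1, H2-Eb1 and Cd74 averaged higher after K/BxN serum, but the SD of their log2 values within WT K/BxN ST, from 3.35 for Cd74 to 6.37 for H2-Eb1, exceeded the difference between the groups for each of them. None of the 8 genes tested was called (adjusted p from 0.684 to 0.884, Benjamini-Hochberg over 12645 genes), where 0.00791% of all genes were called, that is 1 gene. Cd74 had a log2 fold change of 3.24 (95% interval 0.15 to 6.33, unadjusted p = 0.0410, adjusted p = 0.684 with limma) and was the only one of the 8 with an unadjusted p below 0.05, as 902 of the 12645 genes had (7.13%). The log2 fold change was 3.14 for H2-Aa (SE 2.46), 3.16 for H2-Eb1 (SE 2.73) and 2.77 for H2-Ab1 (SE 1.53). It was 0.47 for H2-DMb1 (SE 0.30), 0.13 for H2-DMa (SE 0.17), −0.41 for Cd86 (SE 0.35) and −0.47 for H2-DMb2 (SE 0.71). For H2-DMb2, WT Control ST library 1 had 658 normalised counts. Libraries 2 and 3 of that group, at 300 and 245, lay within the WT K/BxN ST range of 131 to 407. The 8 genes had a median log2 fold change of 1.62, with 6 positive, against 0.06 over all genes tested. DESeq2 on the recovered reads called Cd74 (log2 fold change 5.08, adjusted p = 0.0215) among 127 genes, 1% of those tested. Without the filter on low counts DESeq2 called Cd74 (adjusted p = 0.0121), H2-Aa (0.0452), H2-Ab1 (0.0462) and H2-Eb1 (0.0480), 4 of the 9 genes, where 1.82% of 14329 genes were called higher, whereas edgeR called none of them (adjusted p = 0.646 for Cd74) and none of all genes (0%). The log2 fold changes of the chain genes in WT were larger by over 1.5 times with the count models, at 6.21 for H2-Aa, 6.56 for H2-Eb1, 4.67 for H2-Ab1 and 5.10 for Cd74 with edgeR, and 6.19, 6.55, 4.65 and 5.08 in the same order with DESeq2.

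In TASTPM microglia H2-Aa, H2-Ab1, H2-Eb1 and Cd74 also averaged higher after K/BxN serum. None of the 8 genes was called (adjusted p from 0.964 to 0.969 with limma), as was none of the 12645 genes (0%), of which 533 had an unadjusted p below 0.05. H2-Aa had a log2 fold change of 5.39 (95% interval 0.14 to 10.63, unadjusted p = 0.0449, adjusted p = 0.964 with limma) and was higher in 4 of 4 libraries than in any control. It was 4.34 for H2-Eb1 (SE 2.73), 2.97 for Cd74 (SE 1.45) and 2.80 for H2-Ab1 (SE 1.53). It was 1.25 for H2-DMb2 (SE 0.71), 0.16 for H2-DMb1 (SE 0.30), −0.12 for H2-DMa (SE 0.17) and −0.61 for Cd86 (SE 0.35). Without TASTPM Control ST library 3, at 30.0 normalised counts, the value for H2-DMb2 was 0.30. The median over the 8 genes was 2.02, with 6 positive, against 0.01 over all genes tested. DESeq2 called none of the genes in TASTPM, filtered (0.142% of all genes called) or not (0.586% called higher), with an adjusted p of 0.295 for Cd74 and 0.341 for H2-Aa in the filtered fit, and edgeR called none (adjusted p = 0.996 for both), as it called none of all genes (0%).

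The size of these fold changes depended on the 4 libraries rich in monocyte markers. A fit without them, chosen after the data had been seen, left 2 libraries in each K/BxN ST group. The log2 fold change of Cd74 was then 0.35 in WT (95% interval −0.65 to 1.34) and 1.07 in TASTPM (0.07 to 2.07, unadjusted p = 0.0375, adjusted p = 0.996 with limma). For H2-Ab1 it was −0.16 in WT (−1.62 to 1.30) and 0.75 in TASTPM (−0.71 to 2.21), and for H2-Eb1 −2.30 in WT (−6.32 to 1.72) and 1.69 in TASTPM (−2.33 to 5.71). H2-Aa gave −1.99 in WT (−5.36 to 1.39) and 3.38 in TASTPM (0.00 to 6.75, unadjusted p = 0.04996, adjusted p = 0.996 with limma). Cd86 moved to −0.06 in WT and −0.13 in TASTPM. None of the 8 genes was called in either genotype, and neither was any of all genes tested (0% in each). With the summed neutrophil and monocyte markers as a covariate in all 14 libraries, the log2 fold change of Cd74 was 1.11 in WT and 0.61 in TASTPM. The part that cells bearing monocyte, neutrophil, dendritic cell, border-associated macrophage or amyloid-responsive microglia markers had in the class II values was not tested. In WT K/BxN ST the 2 libraries rich in monocyte markers were those in which Y-linked transcripts dominated, and the other 2 were those in which Xist did, so sex and monocyte markers cannot be told apart there. In TASTPM K/BxN ST library 3 was Y-linked as well, with 3077 normalised counts of Cd74.

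**Figure D2:**
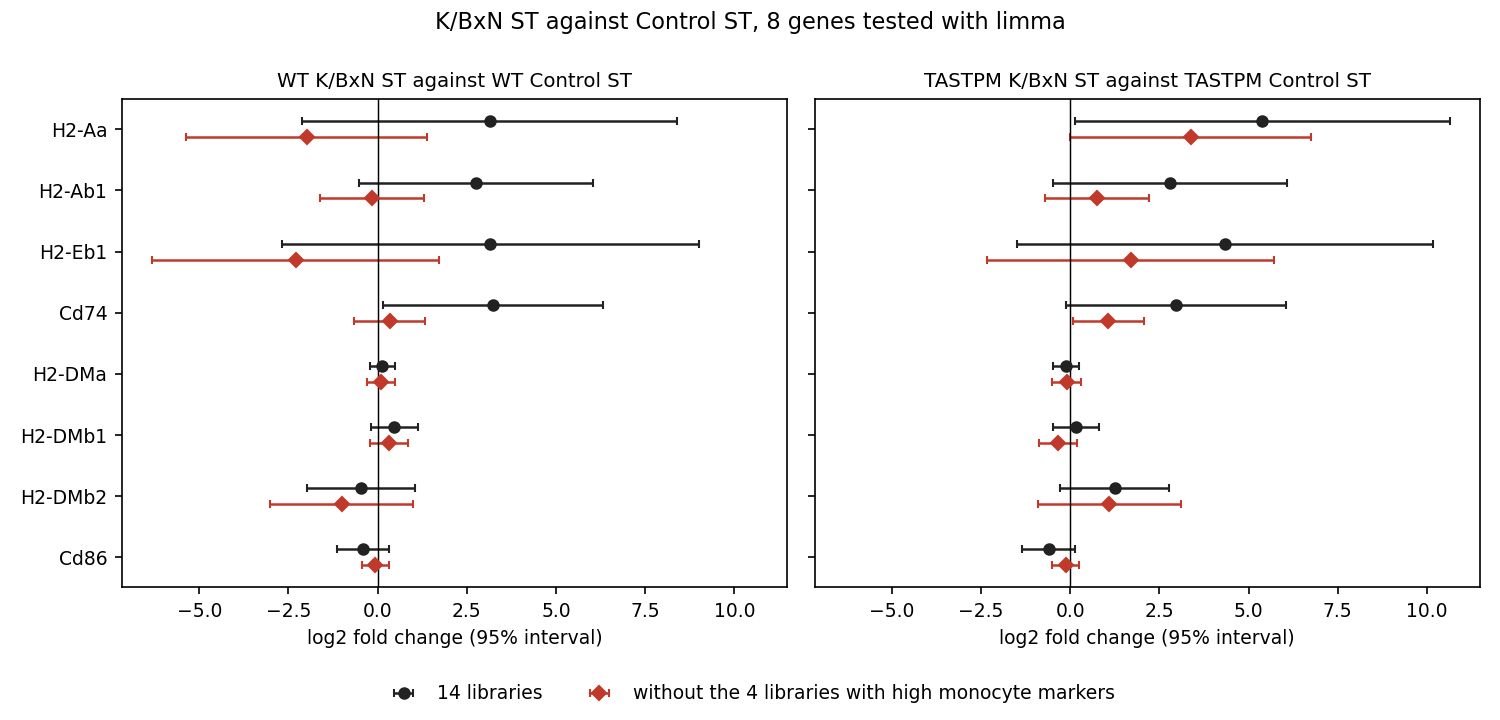
Log2 fold change of K/BxN ST against Control ST with its 95% interval (limma) for the 8 genes tested, in WT (left) and TASTPM (right), from 14 libraries (circles) and without the 4 libraries rich in monocyte markers (diamonds). The intervals of H2-Aa and H2-Eb1 are the widest; in WT H2-Aa goes from 3.14 to −1.99 and Cd74 from 3.24 to 0.35 when the 4 libraries are left out.

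Whether the response differed between the genotypes was tested as an interaction, and none of the 8 genes was called (adjusted p = 0.999 with limma for each, 0% of all genes called, 385 genes with an unadjusted p below 0.05). The response of H2-Aa, H2-Eb1 or H2-DMb2 in TASTPM was therefore not shown to differ from that in WT. TASTPM and WT were also compared within each serum. After control serum none of the 8 genes was called (adjusted p from 0.883 to 0.999 with limma, 0% of all genes called, 704 with an unadjusted p below 0.05). H2-DMb2 had the lowest unadjusted p, with 180, 271 and 30.0 normalised counts in TASTPM against 658, 300 and 245 in WT and a log2 fold change of −1.67 (95% interval −3.29 to −0.04, unadjusted p = 0.0452, adjusted p = 0.883 with limma). Without TASTPM Control ST library 3, at 30.0, the log2 fold change was −0.72, and the groups overlapped. After K/BxN serum none was called either (adjusted p = 1.00 with limma for each, 0% of all genes called, 241 with an unadjusted p below 0.05).

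The proportions among the class II genes were nearly constant in the 4 libraries rich in monocyte markers. Within a library, the ratio of H2-Aa to H2-Ab1 was 0.673 to 0.726 there, that of H2-Eb1 to H2-Ab1 was 0.359 to 0.403 and that of Cd74 to H2-Ab1 was 2.38 to 2.77, although Cd74 itself ranged from 26822 to 105860. In the 10 others the same ratios ran from 0.0167 to 0.786, from 0.00444 to 0.252 and from 1.45 to 4.56. The highest ratio of H2-Aa to H2-Ab1 among the 10, 0.786, was that of TASTPM K/BxN ST library 4, and library 3 of that group had 0.642, so that both were near the 4 in this ratio, while the other 8 had at most 0.381. The ratio of H2-Eb1 to H2-Ab1 was 0.107 in library 3 and 0.252 in library 4 of that group, below the 4. Their ratios of Cd74 to H2-Ab1, at 3.23 and 3.11, were above the 4. Such a ratio does not depend on the scaling between libraries, but with few reads it is imprecise, and H2-Eb1 had as few as 2 reads in a library.

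**Figure D3:**
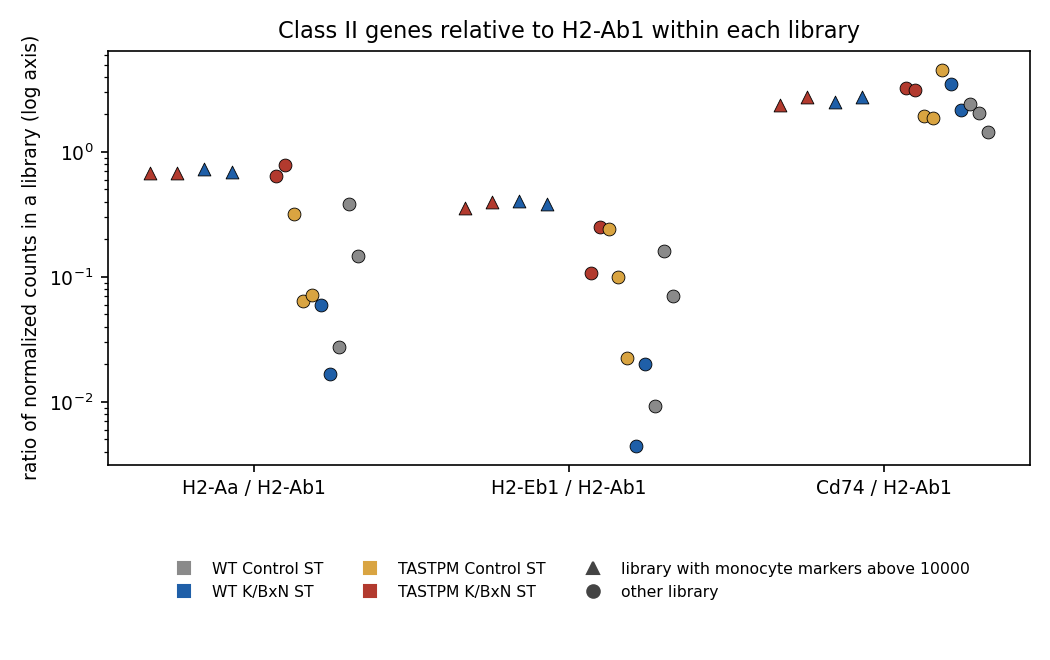
Ratio of H2-Aa, H2-Eb1 and Cd74 to H2-Ab1 within each library (log axis), for the 4 libraries rich in monocyte markers (triangles, left of each label) and the 10 others (circles, right), coloured by group. The triangles lie level, at 0.673 to 0.726 for H2-Aa, while the circles for H2-Aa run from 0.0167 to 0.786, with TASTPM K/BxN ST libraries 3 and 4 at the top.

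The 4 libraries did not hold the same mixture of markers. Ccr2, the chemokine receptor of inflammatory monocytes, had 22987 and 19661 normalised counts in WT K/BxN ST libraries 1 and 2 and 27035 and 8537 in TASTPM K/BxN ST libraries 1 and 2, against 3.13 to 86.0 in the 10 others. S100a8, a calcium-binding protein abundant in neutrophils and also made by monocytes, had 53594, 39499 and 50146 in WT library 1 and TASTPM libraries 1 and 2, but 143 in WT library 2, which was within the range of the 10 others (5.03 to 969). Mmp8, a neutrophil collagenase, had 3245 in WT library 2 and at most 60.0 in the 10 others. WT library 2 held 76375 normalised counts of Cd74, and TASTPM library 2, with 50146 of S100a8, held the least Cd74 of the 4. The ratio of Cd74 to Ccr2 was 3.14 to 4.61 in the 4 libraries, that of Cd74 to Ly6c2 was 1.71 to 5.92, that of Cd74 to Cd209a was 14.9 to 74.1 and that of Cd74 to S100a8 was 0.535 to 536. Cd209a, a lectin of dendritic cells and of some monocytes, had 3844, 1031, 6678 and 440.4 in the same order of libraries as Ccr2 and at most 2.18 in the 10 others. Flt3, the receptor of dendritic cell precursors, had 243 to 923 in the 4 against 0 to 127, Clec9a had 11.7 to 24.7 against 0 in every one of the 10, and Zbtb46 overlapped (4.43 to 132 against 0.838 to 223). Among B cell genes, which also bring class II, Cd79a had 21.3 to 244 against 0 to 44.9 and Cd79b had 376 to 872 against 691 to 1068, and of the border-associated macrophage markers Mrc1 overlapped (294 to 942 against 0 to 599), as did Cd163, Lyve1 and Siglec1, whereas Pf4 (105 to 576 against 0 to 48.2), Ms4a7 (95.1 to 400.1 against 0 to 69.1) and Cbr2 (180 to 640 against 0 to 121) did not.

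**Figure D4:**
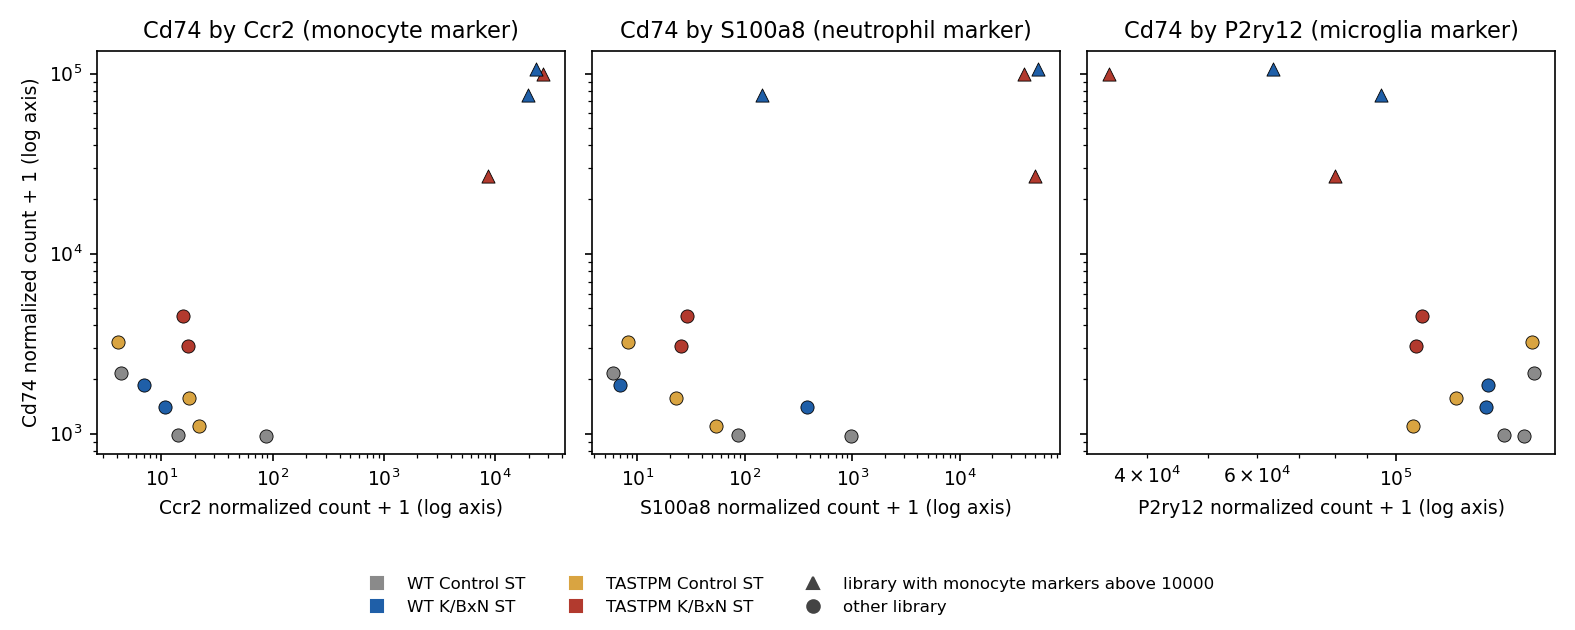
Cd74 (normalised count plus 1, log axis) against Ccr2, S100a8 and P2ry12 (normalised count plus 1, log axes) in the 14 libraries, coloured by group, with triangles for the 4 libraries rich in monocyte markers. The triangles hold 26822 to 105860 of Cd74 and 8537 to 27035 of Ccr2, 1 of them is low in S100a8 (143), and all 4 are lower in P2ry12 (34656 to 94752) than the 10 others (106484 to 166138).

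Genes whose profile was most like that of the class II chains were ranked by their Pearson r with the mean standardised log2 profile of H2-Aa, H2-Ab1, H2-Eb1 and Cd74, as a description. The 10 nearest were Actr3-ps, Ppp2r5a, Ms4a4c, Actr3, Clec4a1, S100a10, Arhgap9, Tmsb10, Rbms1 and Tpm4, with r from 0.939 to 0.957 over the 14 libraries, and 74 of 12637 genes exceeded 0.9. The 14 points fall into 4 libraries and 10, and the coefficient rests on that contrast, since over the 10 others the same 10 genes had r from 0.437 to 0.728. Ms4a4c, a membrane protein gene of monocytes and other leukocytes, had 5139 to 11170 normalised counts in the 4 libraries against 114 to 413, and Clec4a1, a lectin of monocytes, had 457 to 1469 against 8.36 to 53.0. Actr3, Tmsb10 and Tpm4 encode parts of the actin cytoskeleton, and Actr3 had 14634 to 23447 against 5408 to 8438. Actr3-ps is a processed copy of Actr3, so the reads of the pair may not be separable.

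A list of 30 further genes of the class II pathway was examined in the same way. Of the 28 measured, 27 were tested, and 0 were called higher and 0 lower in any of the 5 comparisons with limma (0.00791% of all genes called in WT and 0% in the other comparisons), and 2 had an unadjusted p below 0.05 in WT and 2 in TASTPM, beside 7.13% and 4.22% of all genes tested. The median log2 fold change of the 27 was −0.19 in WT and −0.12 in TASTPM, against 0.06 and 0.01 over all genes. In the 4 libraries rich in monocyte markers, 1 of the 28 was higher than in every other library, 4 were lower in each and 23 overlapped, beside 7.63% higher and 2.51% lower among all genes tested. The one that was higher was Ifi30, the thiol reductase that opens disulphide bonds of antigens in endosomes, with 8230, 6896, 8414 and 5702 normalised counts against 2192 to 4903. Lower were H2-Oa (248 to 586 against 591 to 882), which restrains H2-DM, the endosomal proteases Ctsd (87379 to 194836 against 205813 to 301482) and Lgmn (29241 to 62016 against 69573 to 87754), and the interferon-gamma receptor chain Ifngr1 (31432 to 37708 against 39186 to 50032). Ctss, the protease that trims the invariant chain, overlapped at 131389 to 251495 against 220824 to 366645, as did Rfx5 of the X box complex (106 to 162 against 102 to 367). Cd40, a co-stimulatory receptor, failed the filter on low counts. After K/BxN serum the WT mice had 408, 148, 95.6 and 25.1 normalised counts of it and the TASTPM mice 440.9, 73.2, 0 and 0, with 0 in all 6 Control ST libraries, and it was called higher in both genotypes by DESeq2 without the filter, where 1.82% of genes were called higher in WT and 0.586% in TASTPM.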

How the data were processed

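RNA was measured in 14 libraries of sorted DH microglia (WT Control ST, n = 3; WT K/BxN ST, n = 4; TASTPM Control ST, n = 3; TASTPM K/BxN ST, n = 4), which the study describes as individual mice. cDNA was amplified with the SMART-Seq v4 kit and sequenced in pairs. The authors aligned the reads to GRCm39 with HISAT2 2.1, counted them per gene with featureCounts 1.5.2 and deposited 1 table of a normalised signal, in which the reads of a gene are divided by a size factor of the library. Dividing by the value of 1 read gave whole numbers, to within 0.01 reads, for 100% of the deposited values, and these reads were used where a count was needed. Of 14336 entries, 7 repeats were dropped. Because the unit is a signal, the main test was limma and not a count test. Columns were joined to their group by the file headers, and 4 of the 14 also to a sample by its number. No columns were left unassigned.

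Log2(normalised count + 1) was fitted for the 12645 genes that reached 10 reads in 7 or more libraries, with limma 3.58.1 in R 4.3.3 (4 group means, a trend in the prior variance). Adding 1 lessens the fold changes of low genes. Genes were called at a Benjamini-Hochberg adjusted p below 0.05 over all genes tested and an absolute log2 fold change above 1. Ciita failed the filter and was tested with a two-sided exact permutation test. The alternatives were edgeR 4.0.16 and DESeq2 1.42.0 on the recovered reads, DESeq2 without the filter, TMM, library totals, pseudocounts of 0.5 and 5, no filter, the groups of a comparison alone, a robust variance, covariates for neutrophil and monocyte markers and for sex-linked genes, and leaving out each library. Leaving out the 4 libraries with more than 10000 normalised counts of monocyte markers was added after seeing the data. Tested on simulated data for WT K/BxN ST against WT Control ST over the 12645 genes, limma called 139 of 200 genes changed by 3 on the log2 scale (69.5%) and made 6 false calls. edgeR called 134 (67%), again with 6 false ones, and DESeq2 called 163 (81.5%), with 52 false ones. The simulated spread between libraries was estimated from the Control ST libraries alone. For Cd74 the SD of the log2 values was 3.35 in WT K/BxN ST against 0.67 in WT Control ST. These rates therefore do not give the power for H2-Aa, H2-Ab1, H2-Eb1 and Cd74. A count of 3 reads was taken as the smallest detectable, which covers counting error only.

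The 9 genes, the pathway list and the marker lists were chosen with earlier results of these data known. The genes with printed values come from the 9, the 10 nearest by Pearson r, at most 4 genes of each pathway group and the marker lists, with Xist for sex. Positions, transcripts and promoter sequences are from GRCm39 with GENCODE vM39, a later annotation than the authors used, and the representative transcript is the one tagged as canonical. The summed microglial marker list is not reported here, pathway genes that are not named enter by counts alone, and the flow cytometry of the study was not analysed here.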

Additional observations from a re-analysis of the deposited data

Results flagged for a closer look

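In TASTPM K/BxN ST, the highest library for Ciita (library 1, 772 normalised counts) was farther from the nearest of the other 3 than the 95% critical value of Dixon's test allows for 4 samples, with the gap making up 0.92 of the range of the group. It was the 1 such case among 18 tests of a gene in a group of 4. Chance gives about 1 in 20 for normally distributed values, but the test used normalised counts and not their log2 values. On the log2 scale libraries 1 to 4 held 9.59, 5.97, 1.12 and 0 of Ciita. Library 1 also held the most Ccr2 (27035) and Cd209a (6678) of the 14 and the least P2ry12 (34656). The part of these markers in the Ciita value was not tested.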

How the results depend on the processing

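No paired analysis was possible because the groups share no replicate numbers. The depth was 14223015 to 20239175 reads per library, and its effect on the comparisons was not tested. Reads were few for Ciita, for H2-Eb1 (2 in WT K/BxN ST library 3) and for H2-Aa (10 in WT K/BxN ST library 4). For H2-Aa, H2-Ab1, H2-Eb1 and Cd74 in WT, the SD of the log2 values within K/BxN ST exceeded the difference between the groups. With limma, 0 of the 8 genes were called in each of the 5 comparisons, and this held in 132 of 134 repeats over all alternatives. The 2 exceptions were DESeq2 with the filter (1 gene, Cd74) and without it (4 genes), both in WT. Over all genes, the count called in WT was 1 with limma and 127 and 275 with DESeq2 with and without the filter. It was 0 with edgeR, with a pseudocount of 5, with the groups of the comparison alone, with the neutrophil and monocyte covariate and without the 4 libraries rich in monocyte markers. In TASTPM it was 0 with limma and 18 and 88 with DESeq2, for the interaction 0, 12 and 36, and for TASTPM against WT after control serum 0, 41 and 84, with 1 under either covariate and 1 without the 4 libraries. After K/BxN serum no setting called a gene. Leaving out each library in turn gave 0 to 17 genes in WT (17 without WT Control ST library 3, 14 without library 2 and 0 without WT K/BxN ST library 1, 2 or 3), 0 to 1 in TASTPM, 0 to 3 for the interaction and 0 to 11 for the genotypes after control serum (11 without WT Control ST library 3). Direction turned in 9 values of single genes. Without the 4 libraries it turned for H2-Aa (−1.99), H2-Ab1 (−0.16) and H2-Eb1 (−2.30) in WT and for H2-DMb1 (−0.34) and Ciita (−0.79) in TASTPM. With the neutrophil and monocyte covariate it turned for H2-Eb1 (−0.35) and Cd86 (0.046) in WT and for H2-DMb1 (−0.21) in TASTPM. Leaving out each library gave −0.14 (without library 1 of TASTPM K/BxN ST) to 0.34 for H2-DMb1 in TASTPM. In the interaction and the genotype comparisons, where none of the 8 genes was called under any setting, the direction of single genes turned in 38 of 303 values over the settings and in 47 of 336 with a library left out. The cause was not tested.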
